A study of Mus musculus with 6 samples.

Results

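Cholesterol synthesis, uptake and export were followed through 33 genes, chosen by name from 52550 genes in the count table and matched through their Ensembl identifiers. All 33 were found, and all 33 passed the filter on low counts, which kept 14786 genes in all. They were sorted by role into 8 enzymes of the early pathway, 12 enzymes of the late pathway, 5 genes of the SREBP sensor, 4 genes of uptake and intracellular transport and 4 genes of export and storage. Other sterol genes were kept as a list of their own. The RNA came from wild type (WT) mouse splenic CD3+ T cells, primary cells that had been isolated magnetically and then activated through the T cell receptor with antibodies to CD3 and CD28. For 3 samples this was the only treatment (the group TCR alone), and for the other 3 the small molecule DMGV was present as well at 100 ng/ml (the group TCR+DMGV), with all cells taken after 24 h. DMGV, dimethylguanidino valeric acid, is a product of the dimethylarginines. The labels name DMGV, while the study's legend for an RNA-seq experiment of the same dose and time names LNY1, a factor purified from fibroblast-conditioned medium. The paper identifies LNY1 as the dimethylarginines ADMA and SDMA. Its legends give LNY1 at 100 ng/ml and, where stated, DMGV on cells in µM. Which of them was added cannot be told for certain from these sources, and the groups carry the labels' name. The activator was given to both groups, and no resting cells were analysed here, so the values bear on activated cells only. The labels call the samples biological replicates and do not say whether animals were pooled.

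Cholesterol is built from acetyl-CoA through mevalonate and the isoprenoids to squalene, which is then closed into the first sterol and trimmed to cholesterol. When sterols in the endoplasmic reticulum are low, SCAP carries the SREBP factors to the Golgi, where they are cut and released to switch on the synthesis enzymes, and INSIG proteins hold SCAP back when sterols are plentiful. Oxidised sterols act on the LXR receptors, which switch on the ABC exporters. T cells turn synthesis on and export down as they prepare to divide, since new membrane needs sterol.

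The total counts ranged from 37758725 to 43718867 per sample, and the 33 genes held between 0.396% and 0.435% of them. The lowest count of any of the 33 genes in any sample was 114 and the highest 24660. T cell markers, 8 genes such as Cd3e and Lck, summed to 2275 to 2594 CPM (counts scaled to the effective library size) in TCR alone and to 2459 to 2739 in TCR+DMGV. Markers of most other cells were low, with B cell genes at 6.62 to 9.24 against 6.94 to 7.64 CPM and macrophage genes at 8.77 to 11.6 against 8.81 to 10.5 CPM, the latter carried mostly by Csf1r while Cd14 and Mrc1 were at 0. Fibroblast and endothelial genes were higher, at 32.4 to 37.1 against 35.4 to 36.5 CPM. Nearly all of this was Pecam1, while Cdh5 was at 0. All 3 neutrophil markers were at 0 in every sample. Dendritic cell genes summed to 3.53 to 5.12 against 4.69 to 5.57 CPM, NK cell genes to 0.466 to 0.974 against 0.836 to 1.57 CPM and red cell genes to 2.10 to 2.74 against 0.921 to 2.16 CPM. The part of other cells in the differences below was not tested. In 2 samples, TCR alone replicate 3 and TCR+DMGV replicate 1, genes of high GC content were shifted up against genes of low GC content, by 0.32 and 0.20 on the log2 scale between genes above 54.8% and genes below 45.6% GC, while the other 4 samples ranged from -0.23 to -0.04. Values that depend on that pair are given below with and without it. Leaving it out does not remove the trend. The samples left were at -0.23 and -0.22 in TCR alone and at -0.06 and -0.04 in TCR+DMGV, so the trend still differed between the groups.

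The promoters of this pathway are known for binding sites of SREBP beside those of the general factors NF-Y and Sp1. RefSeq windows of GRCm38.p6, from 250 bases before to 50 bases after the start, were at hand for 27 of the 33 genes, and some genes had more than 1 window. On both strands, the NF-Y box CCAAT was found for 23 of those 27 genes (85.2%), against 41.1% of all 27025 genes with a window. The Sp1 box GGGCGG was found for 24 (88.9%), against 38.2% of all genes. The SRE-like form TCACNCCAC was found for 1 gene, Hmgcs1 (3.70%), against 1.44% of all genes, and the E-box form TCACGTGA for none, against 1.12%. The genes of the pathway had all passed the filter on low counts, whereas all genes with a window were taken whether or not they passed it. Shares among expressed genes are not given here, so the higher shares cannot be read as particular to this pathway. Other spellings of these sites were not searched, and a match describes letters, not binding. The 250 bases before the start are shown for the 4 genes described below with the smallest p among those whose bases lie outside the annotated gene. They are printed 5′ to 3′ on the strand of the gene, with capitals for every match to those motifs. The first window holds the only SRE-like match, the second a single NF-Y box, the third no match at all and the fourth Sp1 boxes only.
Hmgcs1, chr13:119690101-119690350, plus strand: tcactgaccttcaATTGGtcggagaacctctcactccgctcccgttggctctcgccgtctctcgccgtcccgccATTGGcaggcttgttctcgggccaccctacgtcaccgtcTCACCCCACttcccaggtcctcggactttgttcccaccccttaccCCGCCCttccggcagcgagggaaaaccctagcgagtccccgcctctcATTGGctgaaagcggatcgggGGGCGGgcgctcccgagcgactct
Pmvk, chr3:89454291-89454540, plus strand: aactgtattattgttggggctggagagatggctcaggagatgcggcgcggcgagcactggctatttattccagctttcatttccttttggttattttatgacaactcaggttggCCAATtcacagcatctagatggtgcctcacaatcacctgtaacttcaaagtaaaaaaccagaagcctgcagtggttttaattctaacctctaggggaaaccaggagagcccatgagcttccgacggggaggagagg
Nr1h2, chr7:44553966-44554215, minus strand: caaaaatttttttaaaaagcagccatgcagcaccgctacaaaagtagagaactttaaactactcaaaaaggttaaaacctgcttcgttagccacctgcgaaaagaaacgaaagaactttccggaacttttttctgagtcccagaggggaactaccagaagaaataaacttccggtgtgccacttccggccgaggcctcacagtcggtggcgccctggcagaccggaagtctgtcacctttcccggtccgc
Abca1, chr4:53159896-53160145, minus strand: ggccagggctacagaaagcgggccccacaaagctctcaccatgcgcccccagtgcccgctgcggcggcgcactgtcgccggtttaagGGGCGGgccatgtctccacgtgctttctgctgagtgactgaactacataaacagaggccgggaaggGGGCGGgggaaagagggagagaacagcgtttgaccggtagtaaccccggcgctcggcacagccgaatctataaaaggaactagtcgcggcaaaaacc

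Activated T cells carried the whole pathway, from the thiolase to the last reductases, at levels that differed widely between genes. Levels are compared here as FPKM, fragments scaled to transcript length and to the total of the sample, averaged over the 6 samples. The highest were Cyp51, the lanosterol demethylase, at 99.6 FPKM and Srebf2, which encodes SREBP2, at 97.4 FPKM. Idi1, the isopentenyl diphosphate isomerase, followed at 80.2 and Hmgcs1, the HMG-CoA synthase, at 67.2 FPKM. These 4 genes stood above at least 95.1% of all genes tested. The ranges of Cyp51, Srebf2, Idi1 and Hmgcs1 overlapped from each to the next, while the lowest sample of Hmgcs1, 54.9 FPKM, was above the highest of Insig1, 49.8 FPKM. Insig1, Fdps and Npc2 formed the next step at 47.4, 44.2 and 43.3 FPKM, with overlapping ranges. From Pmvk at 31.99 down to Dhcr7 at 7.79 FPKM, 18 genes followed each other with each range overlapping the next. The genes below were clear of that run, from Ggps1 at 5.08 FPKM to Tm7sf2 at 1.17 and Abca1 at 0.303 FPKM. In all, 25 of the 32 neighbouring pairs overlapped in their ranges.

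**Figure D1:**
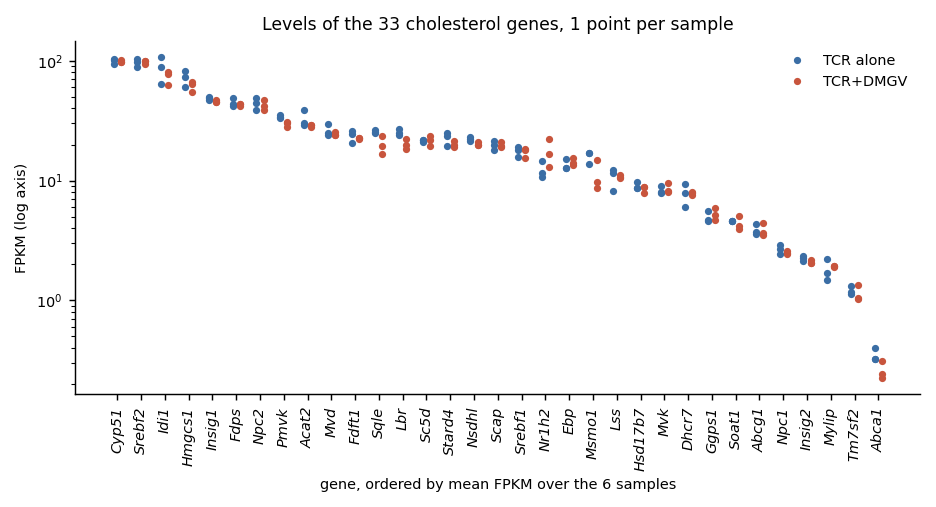
Level of each of the 33 genes in FPKM (y axis, log scale), ordered by the mean over the 6 samples, with 1 point per sample and the groups in 2 colours. The order runs from Cyp51 at 99.6 to Abca1 at 0.303 FPKM, and most neighbours overlap.

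Where a pair of genes serves the same step, 1 of them held most of the RNA in every sample. Lbr and Tm7sf2 both encode a sterol C14 reductase, and the FPKM of Lbr was 14.8 to 24.1 times that of Tm7sf2. Insig1 stood at 20.6 to 23.1 times the FPKM of Insig2, and Srebf2 at 5.10 to 6.10 times that of Srebf1, which encodes SREBP1. Each of these ratios overlapped between the groups. Abcg1, which passes cholesterol to mature lipoproteins, was at 8.90 to 13.6 times the FPKM of Abca1, which loads lipid-poor particles, in TCR alone and at 11.2 to 19.9 times in TCR+DMGV. Npc2 and Npc1 hand cholesterol out of the lysosome together, and Npc2 had 13.5 to 18.7 times the FPKM of Npc1. Of the LXR genes, Nr1h2 (LXRβ) was at 14.9 FPKM, while Nr1h3 (LXRα) had at most 13 counts in a sample and was not tested.

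With DMGV the pathway as a whole stayed close to its level in TCR alone, and the largest differences were those of Nr1h2, which was higher, and of Msmo1, Abca1, Sqle and Lbr, which were lower. None of the 33 genes passed the threshold, an adjusted p under 0.05 in edgeR's quasi-likelihood test, and the adjusted p was 0.999 for each. None passed with DESeq2 or limma either. In the same fit 2 of the 14786 genes passed (0.0135%). Before adjustment, 4 of the 33 genes (12.1%) had a p under 0.05, beside 3.19% of all genes tested. Of these, 3 were lower with DMGV and 1 was higher, where all genes gave 1.56% lower and 1.63% higher. For 4 genes (12.1%), namely Pmvk, Sqle, Lbr and Insig1, every CPM value with DMGV was below every value of TCR alone. No gene of the 33 was apart in the other direction. Of all genes tested 8.86% were without overlap, 3.94% lower and 4.92% higher. By sign, 21 of the 33 genes were lower and 12 higher, while 49.4% of all genes tested were lower. Cyp51 and Sc5d were among the higher ones at 0.01, turning to -0.0023 each when only library size was scaled. The median log2 fold change of the 33 genes was -0.06, beside 0.0024 for all genes. The samples' medians of the 33 genes' deviations from their means, on the log2 scale, were 0.01, 0.06 and 0.06 in TCR alone and -0.04, -0.04 and -0.02 in TCR+DMGV, so the groups did not overlap on a scale of a few percent. Leaving out TCR alone replicate 1 left 2 genes at a p under 0.05, and leaving out TCR+DMGV replicate 3 left 1, Lbr, with the share of all genes in these settings not given here. In these bulk samples fewer cells of a kind and less RNA per cell cannot be told apart.

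**Figure D2:**
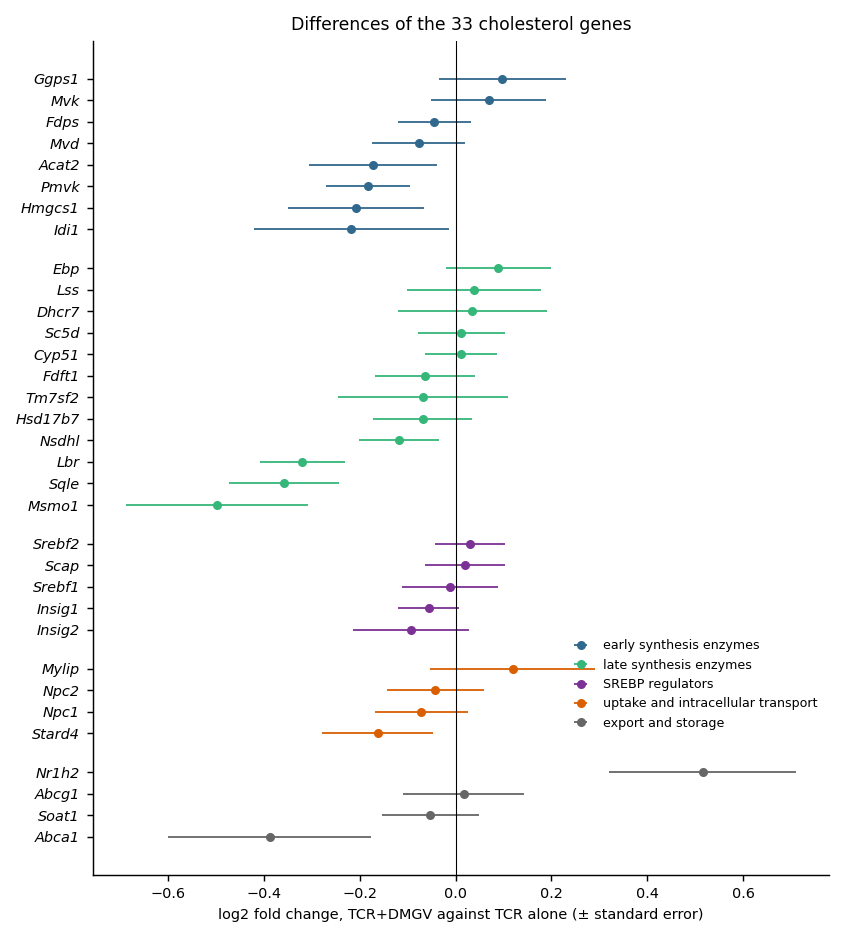
Log2 fold change of TCR+DMGV against TCR alone for each of the 33 genes (x axis), grouped by role, with bars for 1 standard error. Msmo1 at -0.50 and Nr1h2 at 0.52 mark the ends, and most bars cross or touch 0.

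The 8 early enzymes, which lead from acetyl-CoA to farnesyl and geranylgeranyl diphosphate, had a median log2 fold change of -0.12, with 6 lower and 2 higher and none at a p under 0.05. Pmvk, the phosphomevalonate kinase (ENSMUSG00000027952, chr3:89454541-89469013), was at 64.2, 65.7 and 66.8 CPM in TCR alone and at 52.9, 60.7 and 59.7 CPM in TCR+DMGV. Every DMGV sample was below every sample of TCR alone, and the means, 65.6 ± 1.27 and 57.7 ± 4.22 CPM (SD, n = 3 each), differed by 11.9%. Its log2 fold change was -0.18 with a standard error (SE) of 0.09, at an unadjusted p of 0.0722 in edgeR. Hmgcs1, which makes HMG-CoA and is a classical SREBP target (ENSMUSG00000093930, chr13:119690379-119708260), was at 424, 388 and 306 CPM in TCR alone and at 278, 348 and 341 CPM in TCR+DMGV. Its groups overlapped through TCR alone replicate 3 alone, and its log2 fold change was -0.21 (SE 0.14, unadjusted p = 0.185 in edgeR). A gene on the other strand, Gm48342, overlaps Hmgcs1, and whether strand was used in the counting is not stated.

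Acat2, the cytosolic thiolase of the first step, was at 82.8, 114 and 83.8 CPM in TCR alone and at 81.2, 81.7 and 85.8 CPM in TCR+DMGV. The difference of -0.17 (SE 0.13) rested on TCR alone replicate 2, and was -0.01 without it. Idi1 had a log2 fold change of -0.22 with the widest error of the early enzymes (SE 0.20), as TCR alone spanned 245 to 422 CPM and TCR+DMGV 242 to 322 CPM. Mvd, which makes isopentenyl diphosphate, and Fdps, the farnesyl diphosphate synthase, were at -0.08 and -0.04. Mvk, the mevalonate kinase, was at 0.07 and Ggps1, which makes the geranylgeranyl unit of protein prenylation, at 0.10, with SEs of 0.12 and 0.13.

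Of the early enzymes, 3 have a low GC content, and their values in the pair of samples with a GC trend differed. In TCR alone replicate 3 and TCR+DMGV replicate 1, Idi1, with 41.8% GC, was below its mean by -0.34 and -0.36 on the log2 scale. Hmgcs1, with 43.2% GC, was below its mean by -0.17 and -0.31 in the same samples. Ggps1, with the lowest GC content of the 33 genes, 40.8%, was at -0.15 and -0.01. Across the 33 genes, GC content and the mean deviation in this pair correlated at r = 0.44 and rho = 0.47, as a description across genes that share these libraries. Without that pair, which leaves 2 samples against 2, the log2 fold change was -0.23 for Hmgcs1 and -0.29 for Idi1, with unadjusted p-values of 0.0275 and 0.0302 in edgeR and an adjusted p of 0.733 each. The GC trend still differed between the groups in that setting, so these values are not free of it. With the correction for GC content in all 6 samples the log2 fold change was -0.16 for Hmgcs1 and -0.14 for Idi1, with unadjusted p-values of 0.0276 and 0.103 and an adjusted p of 0.999 each in edgeR.

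**Figure D3:**
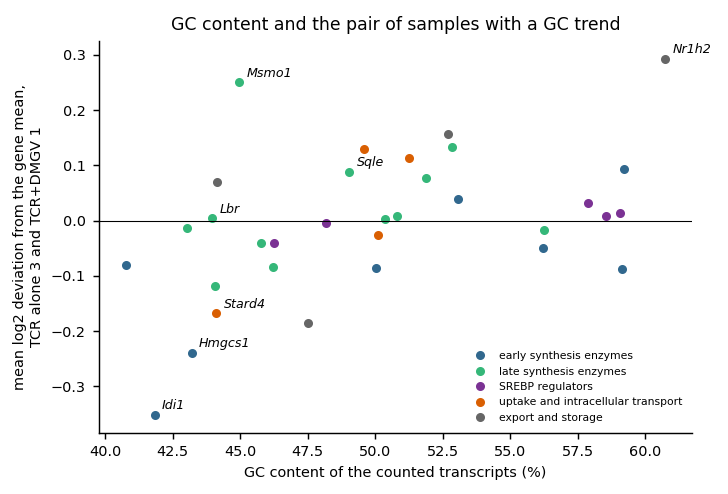
GC content of the counted transcripts in percent (x axis) against the mean log2 deviation from the gene's mean in TCR alone replicate 3 and TCR+DMGV replicate 1 (y axis), 1 point per gene, coloured by role. Idi1 and Hmgcs1 lie low at 41.8% and 43.2% GC, Msmo1 lies high at 45.0% and Nr1h2 at 60.75%, with r = 0.44 across the 33 genes.

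The 12 late enzymes, from squalene to cholesterol, had a median log2 fold change of -0.07, with 7 lower and 5 higher. Of the 12, 3 were at a p under 0.05 (25%), all lower, beside 3.19% of all genes tested and 1.56% lower. They are the same 3 lower genes as counted above among the 33. Leaving out TCR alone replicate 1 gave a median of -0.14, and leaving out TCR+DMGV replicate 1 gave -0.0014. The 3 genes were Lbr, Sqle and Msmo1, which act at separate points of the route.

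Lbr encodes the lamin B receptor, a protein of the inner nuclear membrane that also reduces the C14 bond of sterols (ENSMUSG00000004880, chr1:181815335-181843046). It was at 143, 135 and 126 CPM in TCR alone and at 116, 99.5 and 108 CPM in TCR+DMGV. No value overlapped between the groups, and the mean was 19.9% lower with DMGV, at 108 ± 8.12 against 135 ± 8.65 CPM (SD, n = 3 each). The log2 fold change was -0.32 (SE 0.09), with an unadjusted p of 0.00848 and an adjusted p of 0.999 in edgeR. Lbr was lower at an unadjusted p under 0.05 in each of the 19 other settings, with adjusted p from 0.649 to 1.00. The log2 fold changes ran from -0.42 to -0.26. These settings reuse the same samples or a part of them, so they are not independent of each other. Lbr has a low GC content, 44.0%. With the correction for GC content its log2 fold change was -0.29, at an unadjusted p of 0.0353 in edgeR. Dnah14 overlaps Lbr on the other strand. Tm7sf2, the second C14 reductase, was at -0.07 (SE 0.18) from at most 5.45 CPM.

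Sqle, the squalene epoxidase, which catalyses the first step with oxygen and is a rate-limiting enzyme of the pathway (ENSMUSG00000022351, chr15:59315077-59331192), was at 164, 158 and 154 CPM in TCR alone. In TCR+DMGV it was at 143, 123 and 105 CPM, so that no value overlapped. The mean was 22.0% lower, 124 ± 18.7 against 159 ± 4.66 CPM, and the log2 fold change was -0.36 (SE 0.12, unadjusted p = 0.0163, adjusted p = 0.999 in edgeR). The DMGV samples spread more than those of TCR alone. In 18 of the 19 other settings the unadjusted p of Sqle was under 0.05, the exception being 0.05002 without TCR+DMGV replicate 3.

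Msmo1, the methylsterol oxidase that removes the C4 methyl groups (ENSMUSG00000031604, chr8:64718139-64733792), was at 116, 96.8 and 115 CPM in TCR alone and at 101, 61.0 and 69.3 CPM in TCR+DMGV. TCR+DMGV replicate 1 lay within the range of TCR alone, while the other two were below it. The log2 fold change was -0.50 (SE 0.19, unadjusted p = 0.0330, adjusted p = 0.999 in edgeR). It was -0.75 without TCR+DMGV replicate 1 and -0.35 at its smallest among the 19 settings, of which 14 gave a p under 0.05. Msmo1 has a low GC content, 45.0%, and stood 0.34 and 0.16 above its mean in the pair of samples with the GC trend. With the correction for GC content its log2 fold change was -0.47, at an unadjusted p of 0.0682 in edgeR, no longer under 0.05. Without that pair its log2 fold change was -0.70, with an unadjusted p of 0.00118 and an adjusted p of 0.365 in edgeR, the lowest adjusted p of the 33 genes in any setting. As noted above, the groups still differed in GC trend there.

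The enzymes next to these in the route had smaller differences, of which that of Nsdhl was the largest. Nsdhl and Hsd17b7, which act with Msmo1 in removing the C4 methyl groups, were at -0.12 (SE 0.08) and -0.07 (SE 0.10). Fdft1, the squalene synthase just before Sqle, was at -0.06, and Lss, the lanosterol synthase just after it, at 0.04. Cyp51 and Sc5d were at 0.01 each. Ebp, the sterol isomerase, was at 0.09 and Dhcr7, a reductase of the last steps, at 0.03 (SE 0.16), with TCR alone at 38.8, 52.8 and 59.7 CPM against 51.6, 52.4 and 51.0 CPM in TCR+DMGV.

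**Figure D4:**
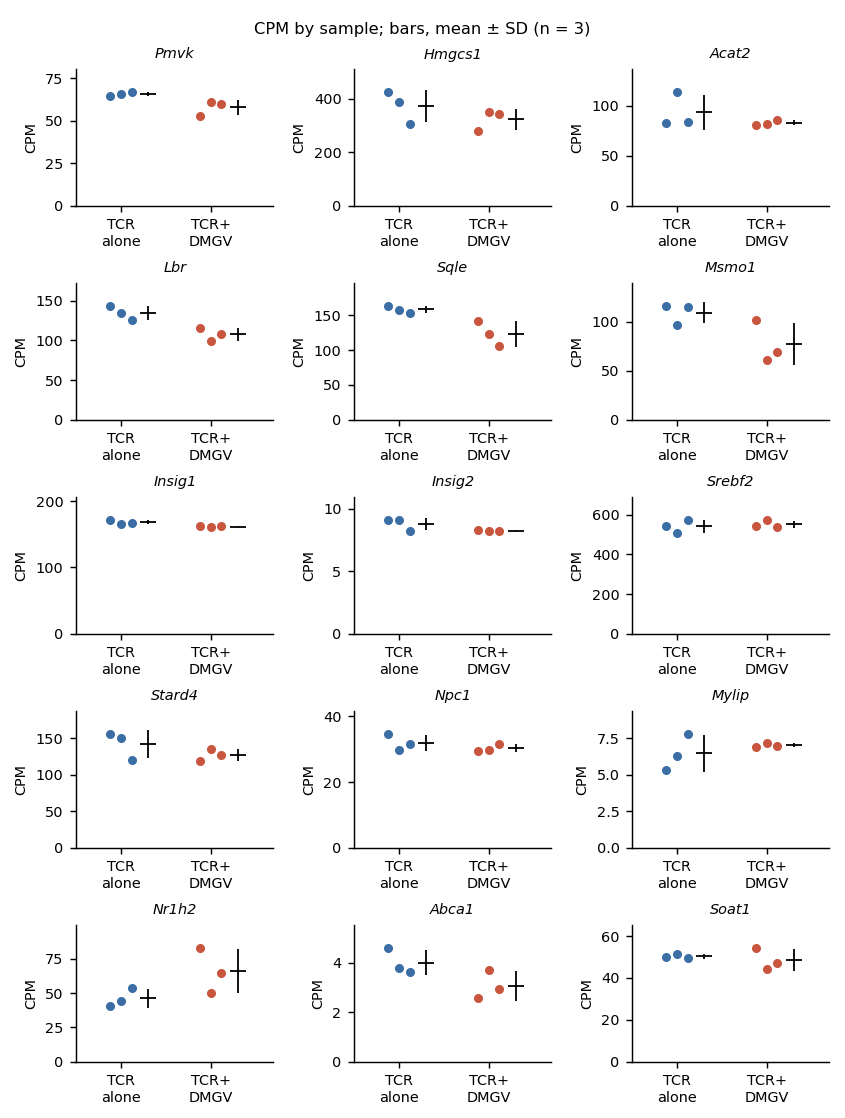
CPM (y axis, from 0) of 15 genes in each sample, the 3 of smallest p in each role, with the mean and SD of each group (n = 3). The points of Pmvk, Lbr, Sqle and Insig1 do not overlap between the groups, whereas those of Msmo1 and Nr1h2 overlap by 1 sample of TCR+DMGV.

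The 5 genes of the SREBP sensor differed least, with a median log2 fold change of -0.01. Insig1, which retains SCAP and is itself switched on by SREBP (ENSMUSG00000045294, chr5:28071363-28078662), was at 172, 165 and 167 CPM in TCR alone and at 162, 161 and 162 CPM in TCR+DMGV. The samples did not overlap, but the means of 168 ± 3.15 and 162 ± 0.342 CPM (SD, n = 3 each) differed by 3.805%, and the log2 fold change of -0.06 (SE 0.06) had an unadjusted p of 0.408 in edgeR. Insig2 was at 9.08, 9.12 and 8.24 CPM against 8.34, 8.22 and 8.23 CPM, with a log2 fold change of -0.09 (SE 0.12). Srebf2, the chief factor of the cholesterol genes, was at 544, 506 and 571 CPM against 545, 573 and 538 CPM, and its log2 fold change was 0.03 (SE 0.07). Srebf1 and Scap were at -0.01 and 0.02, with SEs of 0.10 and 0.08. These values are RNA levels and do not show how much SREBP protein was cut.

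The 4 genes of uptake and intracellular transport had a median of -0.06, and none was at a p under 0.05. Stard4, a carrier of sterols between membranes that SREBP2 switches on, was at 156, 151 and 120 CPM in TCR alone and at 118, 136 and 128 CPM in TCR+DMGV, with a log2 fold change of -0.16 (SE 0.12). Like Hmgcs1 and Idi1 it has a low GC content, 44.1%, and was below its mean by -0.16 and -0.18 in the pair of samples with the GC trend. With the correction for GC content its log2 fold change was -0.13, at an unadjusted p of 0.0681 in edgeR. Without the pair, where the groups still differed in GC trend, it was -0.22, with an unadjusted p of 0.0388 and an adjusted p of 0.750 in edgeR. Npc1, the membrane protein of lysosomal export, was at 34.6, 29.6 and 31.5 CPM against 29.6, 29.9 and 31.6 CPM, and Npc2, its soluble partner, had a log2 fold change of -0.04 (SE 0.10). Mylip, a ubiquitin ligase that removes lipoprotein receptors from the surface, was at 5.32, 6.25 and 7.78 CPM against 6.87, 7.15 and 6.99 CPM, all 3 DMGV values within the range of TCR alone.

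The 4 genes of export and storage had differences of both signs, with a median of -0.02. Nr1h2, the LXRβ gene (ENSMUSG00000060601, chr7:44549616-44553951), was at 40.5, 44.4 and 53.8 CPM in TCR alone and at 82.9, 50.3 and 65.0 CPM in TCR+DMGV. It was the only 1 of the 33 genes that was higher at a p under 0.05. TCR+DMGV replicate 2 lay within the range of TCR alone, and the means were 46.2 ± 6.85 and 66.0 ± 16.3 CPM (SD, n = 3 each). The log2 fold change was 0.52 (SE 0.19, unadjusted p = 0.0321, adjusted p = 0.999 in edgeR), and 11 of the 19 other settings gave a p under 0.05, with log2 fold changes from 0.32 to 0.68. Its GC content, 60.75%, is the highest of the 33 genes, and with a correction for GC content its log2 fold change was 0.47. Without the pair of samples with the GC trend, where the groups still differed in that trend, it was 0.44 (unadjusted p = 0.0226, adjusted p = 0.733 in edgeR).

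Abca1, a target of LXR and the lowest gene of the pathway, was at 4.61, 3.798 and 3.65 CPM in TCR alone and at 2.56, 3.72 and 2.93 CPM in TCR+DMGV. Its log2 fold change was -0.39 (SE 0.21, unadjusted p = 0.107 in edgeR), and it overlapped between the groups through TCR+DMGV replicate 2. Abcg1, another LXR target, was at 0.02 (SE 0.13), and Soat1, which stores cholesterol as ester, was at 50.1, 51.6 and 49.4 CPM against 54.3, 44.1 and 47.2 CPM. A list of 4 further LXR targets had a median of 0.15 and none at a p under 0.05, with Arl4c at 0.26 (SE 0.33) and Smpdl3a at 0.07 (SE 0.13). Lpcat3 was at 0.01 (SE 0.11). Pltp was at 0.23 (SE 1.10) from at most 34 counts in a sample, and the median rests in part on it.

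In the transcript counts the Nr1h2 difference was uneven between forms. Of 201 annotated transcripts of the 33 genes, 188 had a count and 124 passed the filter. None passed the threshold in edgeR, as none of the 38401 transcripts tested did (0.00%), and 3 (2.42%) had an unadjusted p under 0.05, beside 3.22% of all transcripts. DESeq2, fitted to every transcript with a count rather than to the filtered set, called 2 transcripts of the 33 genes. The share of all transcripts that DESeq2 called is not given here, so this count cannot be read as a result about the pathway. Nr1h2-202, a protein-coding form, was counted 509, 268 and 387 times in the samples of TCR alone and 1566, 1414 and 1184 times with DMGV. In CPM it was at 13.4, 6.60 and 9.48 against 35.6, 33.02 and 29.9, so that every DMGV sample was above any of TCR alone, as in 5.07% of all transcripts tested, also in TCR+DMGV replicate 2, where the gene as a whole was within the range of TCR alone. Its log2 fold change was 1.74 (SE 0.29), with an unadjusted p of 0.00128 and an adjusted p of 0.398 in edgeR, and DESeq2 gave an adjusted p of 9.78e-04. Of the gene's counts it held 33.1%, 14.8% and 17.4% in TCR alone and 42.4%, 65.3% and 46.0% in TCR+DMGV.

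The other Nr1h2 forms did not share that pattern throughout. Nr1h2-201 was at 8.485, 2.31 and 3.11 CPM against 9.69, 8.71 and 13.2 CPM, also without overlap (log2 fold change 1.18, SE 0.55). Nr1h2-216, at 17.3 and 23.4 CPM in TCR alone replicates 2 and 3, was at 0 in TCR alone replicate 1 and at 0, 0 and 1.11 CPM in TCR+DMGV. The counts of a gene's transcripts come from reads that several of them share, so the split between forms that are nearly alike is an estimate. How reads were split was not given in the sources used here.

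**Figure D5:**
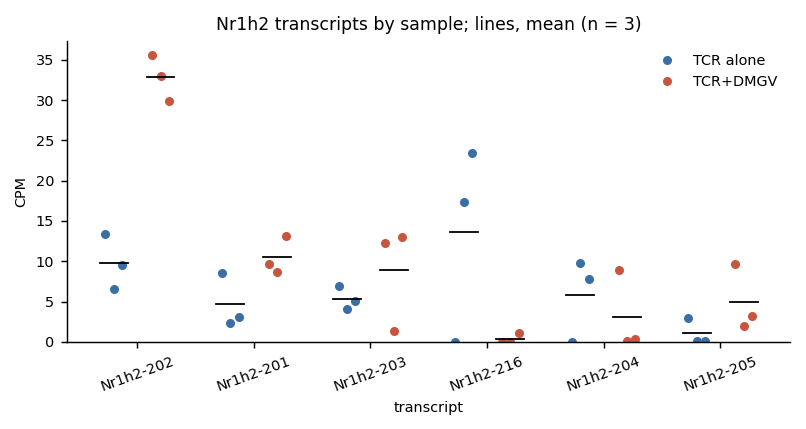
CPM (y axis) of 6 Nr1h2 transcripts in each sample, with a line at each group's mean (n = 3). Nr1h2-202 lies at 6.60 to 13.4 CPM in TCR alone and at 29.9 to 35.6 CPM in TCR+DMGV, and Nr1h2-216 is seen in 2 samples of TCR alone and nearly absent elsewhere.

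For most other genes the main form was stable or varied without regard to the groups. In 16 of the 33 genes 1 transcript held over 90% of the counts, and in 6 genes (Dhcr7, Fdps, Mvk, Nr1h2, Sqle and Tm7sf2) the most counted transcript changed between samples. Fdps-201 held 27.0% of the gene's counts in TCR alone replicate 1 and 25.6% in TCR+DMGV replicate 1, but 70.3% to 75.2% in the other 4 samples, with Fdps-203 taking its place. Msmo1-202, a form with a retained intron, was at 33.2 CPM in TCR+DMGV replicate 3 and at most at 1.76 CPM elsewhere, so that the coding form Msmo1-201 held 48.8% of the gene's counts there. Lbr-203, also with a retained intron, held 30.8% of the counts in TCR alone replicate 3 and 18.3% in TCR+DMGV replicate 2, against 4.49% to 7.11% in the rest. The coding form Lbr-201 overlapped between the groups and had a log2 fold change of -0.26 (SE 0.23).

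Hmgcs1-202 held 96.0%, 92.5% and 66.1% in TCR alone and 71.0%, 71.6% and 67.9% in TCR+DMGV, with Hmgcs1-201 as its counterpart. Srebf1-201 was at 42.1, 30.0 and 34.8 CPM against 44.8, 52.5 and 43.1 CPM without overlap (log2 fold change 0.39, SE 0.17), while the noncoding Srebf1-211 had a log2 fold change of -1.35 (SE 0.50, unadjusted p = 0.0372, adjusted p = 1.00 in edgeR). Dhcr7-210, a form marked for decay, was counted 73, 19 and 25 times in the samples of TCR alone and 0 times in each sample with DMGV, and was the second transcript called by DESeq2, at an adjusted p of 4.40e-04, against 0.719 in edgeR. At most 4.95% of the Dhcr7 counts were of this form.

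Other genes of the pathway gave values of the same small size. The list of other sterol genes, which covers among others the proteases that cut SREBP, ubiquitin ligases of the sterol sensor and further carriers, held 35 genes, of which 30 were tested. None was at a p under 0.05, 11 were higher and 19 lower, and the median was -0.05. In this list 6 genes did not overlap between the groups (20%), 5 of them lower, beside 8.86% of all genes tested and 3.94% lower. Lrp8, a lipoprotein receptor, was at -0.27 (SE 0.12, unadjusted p = 0.0615 in edgeR) and Gramd1a, a carrier that takes sterol from the plasma membrane, at -0.14 (SE 0.07, unadjusted p = 0.0869). The 13 genes of the isoprenoid branch had a median of -0.04, with 6 higher and 7 lower and none at a p under 0.05. In this branch 2 genes did not overlap between the groups (15.4%), both higher, beside 4.92% higher among all genes tested. Pdss2, of ubiquinone synthesis, was at -0.39 (SE 0.18). Fnta, a subunit of the farnesyl and geranylgeranyl transferases, was at 0.17 (SE 0.08).

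Fatty acid genes under SREBP1 were lower in a larger share of the list than the cholesterol genes. Of 15 listed 13 were tested, 11 were lower, 4 were at a p under 0.05 (30.8%), and 8 did not overlap between the groups (61.5%), all lower, with a median of -0.14. Of all genes tested 49.4% were lower by sign, 3.19% were at a p under 0.05 and 8.86% did not overlap, with 3.94% lower without overlap. The 4 were Scd1 and Scd2, stearoyl-CoA desaturases, at -0.39 (SE 0.11) and -0.23 (SE 0.08), Fads2, a desaturase of polyunsaturated fatty acids, at -0.40 (SE 0.13), and Lpin1, a phosphatidate phosphatase, at -0.36 (SE 0.11). None of them passed the adjusted threshold, and whether this list differs from the 33 cholesterol genes was not tested.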

How the data were processed

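RNA-seq libraries of 6 samples, 3 of TCR alone and 3 of TCR+DMGV, were analysed from the authors' tables. The authors mapped the reads with HISAT2 2.0.4, per the submitters' processing notes, which also name the build mm9, and calculated expression with StringTie. The deposited counts of genes and of transcripts are whole numbers without normalization, and the deposited FPKM values are scaled by the authors to length and to the sample's total. Transcript FPKM values were not used. How reads that match several places or genes on both strands were counted is not given in the sources used here. The identifiers were matched to GENCODE M21, which annotates GRCm38, for 99.7% of genes without their version and 93.3% with it, and coordinates and transcript names are from there.

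The 33 genes, the lists and the tests were chosen with earlier results of these data known. The main test was the two-sided quasi-likelihood test of edgeR 4.0.16 (R 4.3.3) on counts, with TMM scaling and edgeR's default filter, adjusted by Benjamini-Hochberg over all genes tested, at a threshold of 0.05. With 3 samples a group, an exact permutation test could not go below 0.1. CPM values are TMM-scaled, and deviations use log2 CPM with a prior count of 2. The GC trend was taken over 9036 genes with a log2 CPM above 3. Alternatives were DESeq2 1.42.0, other scalings and filters, limma 3.58.1 on log2(FPKM + 1) and log2(FPKM + 0.1), summed transcript counts, loess corrections (span 0.3) for gene length and GC content, the replicate number as a block, and each sample left out. Leaving out both samples with the GC trend was added after seeing the data. The fits were tested on simulated counts. Values by sample are given for the 3 genes of smallest p in each role and for those without overlap between the groups, other genes described by sample were chosen after their values were seen, and of each further list the genes at a p under 0.05 or else the 2 of smallest p are named. Of the LXR targets all 4 are named. Promoter windows are from RefSeq, and 6 of the 33 genes had none in the table used. Figures were drawn with Python 3.11.15 and matplotlib 3.10.9. Replicates of a group differed by more than counting noise, with a median chi-square per gene of 3.90 to 9.13.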

Additional observations from a re-analysis of the deposited data

How the results depend on the processing

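None of the 33 genes passed the adjusted threshold in any of the 19 other settings, and the lowest adjusted p was 0.365. Of their 627 log2 fold changes under these settings 589 kept the sign, and 16 genes kept it in all. The number of genes past the threshold, 2 in edgeR, was 14 with DESeq2 and 12 without its independent filtering, 1 with library size only, with all genes that had a count and with the GC correction, and 0 with FPKM at either pseudocount and with the length correction. It was 0 to 5 when 1 sample was left out and 12 without both samples of the GC trend, a setting chosen after seeing the data. That setting, in which the groups still differed in GC trend, gave 7 of the 33 genes at an unadjusted p under 0.05 and a late enzyme median of -0.021. The cause of these shifts was not tested. Leaving out 1 sample gave 1 to 6 of the 33 genes at an unadjusted p under 0.05 and late enzyme medians from -0.14 to -0.0014. The share of all tested genes at that p is not given for these settings, so the counts cannot be read as results about the pathway. DESeq2 called 2 transcripts of the 33 genes where edgeR called 0, again without the share of all transcripts called by DESeq2.

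Whether equal replicate numbers mark a shared animal is not stated by the labels. Deviations of samples with the same number correlated at -0.15, 0.12 and -0.15. TCR alone replicate 3 was nearest to TCR+DMGV replicate 1 (0.31), the pair with the GC trend. As deviations within groups of 3, these values cannot settle whether the samples were paired. With the replicate block 0 genes passed, alone or with the GC correction, and 3 of the 33 genes had a p under 0.05, again without the share of all genes.

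With library size only, Cyp51 and Sc5d turned to -0.0023 each. On log2(FPKM + 1) they were at -0.0035 and -0.0080, and on log2(FPKM + 0.1) at -0.0035 and -0.0085. Srebf1 and Soat1 turned to 0.0087 and 0.0055 with the length correction. Srebf2, Scap and Abcg1 turned to -0.0058, -0.018 and -0.0061 with the GC correction and to -0.0060, -0.020 and -0.0086 with GC correction and block. Without both samples of the GC trend Fdps was at 0.022, Cyp51 at -0.0053 and Tm7sf2 at 0.056. Leaving out 1 sample gave -0.14 to 0.18 for Dhcr7, -0.073 to 0.053 for Srebf1, -0.019 to 0.28 for Mylip, -0.076 to 0.099 for Abcg1, -0.17 to 0.022 for Fdft1, -0.11 to 0.14 for Lss, -0.018 to 0.078 for Srebf2, -0.035 to 0.072 for Scap, -0.13 to 0.013 for Mvd, -0.11 to 0.014 for Fdps, -0.033 to 0.041 for Cyp51, -0.14 to 0.027 for Npc2, -0.14 to 0.012 for Soat1, -0.025 to 0.15 for Mvk, -0.0016 to 0.20 for Ggps1 and -0.067 to 0.080 for Sc5d.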
